A study of Mus musculus with 41 samples.

Results

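Cholesterol synthesis and its control by SREBP were followed through 27 genes in myeloid cells sorted from irradiated and untreated mouse tumours. The 27 genes were chosen by name from the known pathway, with earlier results of these data known. They make up a small part of the 55453 genes listed in the authors' tables. They comprise 19 enzymes of the route to cholesterol, 5 genes that control SREBP and 3 genes of sterol transport and uptake. The tumours were grown in the rectum of female C57BL6 mice from MC38-luc, a single mouse colon adenocarcinoma line marked with luciferase. The age of the mice is not given in the sources used here. Irradiated tumours had been given 5 Gy on each of 5 consecutive days, from day 9 to day 13 after implantation, while the other tumours were left untreated, and cells of both were collected on day 14. All cells were CD45+ CD11b+. Tumour-associated macrophages (TAM) were taken as Ly6C- Ly6G- F4/80+ cells, inflammatory monocytes as Ly6C+ Ly6G- cells and granulocytes as Ly6C+ Ly6G+ cells. TAM gave 10 irradiated and 5 untreated libraries, inflammatory monocytes 9 irradiated and 5 untreated, and granulocytes 7 irradiated and 5 untreated, 41 libraries in all from 15 tumour numbers.

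Cholesterol is built from acetyl-CoA through mevalonate, isoprenoid diphosphates, squalene and lanosterol. When sterols in the endoplasmic reticulum run low, the escort protein Scap carries the SREBP transcription factors to the Golgi, where proteases release the part that enters the nucleus and switches on the genes of synthesis and uptake. When sterols are plentiful, the Insig proteins hold Scap back, and oxysterols activate the LXR receptors, which switch on export of cholesterol and, through Mylip, the breakdown of lipoprotein receptors. Macrophages take up much cholesterol with engulfed cells and lipoproteins, and dividing cells need sterol for new membrane.

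The measurements are the results of a Wald test of DESeq2 for each subset, irradiated against untreated, as in the authors' deposited tables. A log2 fold change is the authors' deposited estimate, taken here to be shrunken because some folds differ in sign from their Wald statistic. It may thus understate the change of noisy genes, and it carries no standard error. The scale is called shrunken below on that reading. A gene was called higher or lower where the adjusted p of the authors' deposited table was under 0.05, with the direction taken from the Wald statistic. The tables give 1 mean normalised count for each gene over libraries of all subsets, and members ranged from 31.5 for Fdps to 2940 for Srebf2 on this scale, which is not corrected for gene length. Values of single libraries, their depths and the levels in each subset were not analysed here, so overlap between the groups' libraries is not described. An adjusted p was given for all 27 members in each table, and for 16851 genes of the TAM table, 14506 of the inflammatory monocyte table and 15679 of the granulocyte table. The RNA was from bulk sorted cells, in which fewer cells of a type and less RNA per cell cannot be told apart.

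Genes of cholesterol synthesis were lower in irradiated tumours in all 3 subsets, with the broadest change in TAM and inflammatory monocytes. In TAM, 17 of the 27 members fell and 1 rose, where 12.5% of all tested genes were called lower and 13.9% higher. In inflammatory monocytes, 16 members fell and 1 rose, where only 1.77% of all tested genes were called lower and 4.13% higher. In granulocytes, 8 members fell and 3 rose, where 9.9% of all tested genes were called lower and 7.32% higher. The median log2 fold change of the members in the authors' deposited tables stood at -0.82 for TAM, -0.70 for inflammatory monocytes and -0.24 for granulocytes. Over all tested genes the medians were 0.03 for TAM, 0.02 for inflammatory monocytes and -0.03 for granulocytes. When Wald statistics were first divided by their robust SD, which allows for their wide spread over all genes, the members still called lower numbered 1 for TAM, 6 for inflammatory monocytes and 0 for granulocytes, and none was still called higher. That scaling left few genes of any kind, with 47 of all tested genes called lower for TAM, 6 for inflammatory monocytes and 5 for granulocytes. Calls that ended when p-values were adjusted over all genes with one were Srebf2 in TAM, Acat2 in inflammatory monocytes, and Nsdhl, Sc5d and Tmem97 in granulocytes.

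The same genes recur across the subsets. The subsets share tumour numbers, and untreated libraries of all 3 came from tumour numbers 1 to 5. A gene that recurs is therefore not an independent repeat. Idi1, Sqle, Lss, Cyp51, Stard4 and Tmem97 fell in all 3. A further 10 members fell in 2 subsets, namely Acat2, Hmgcs1, Mvk, Fdps, Fdft1, Msmo1, Hsd17b7, Sc5d, Insig1 and Srebf2. Pmvk and Dhcr7 fell in TAM alone at this threshold, and Srebf1 in inflammatory monocytes alone. Mvd, Ggps1, Ebp and Insig2 were called in no subset. The members that rose were Mylip in TAM and inflammatory monocytes, and Tm7sf2, Nsdhl and Scap in granulocytes. A call in one subset and none in another does not show a difference between them.

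**Figure D1:**
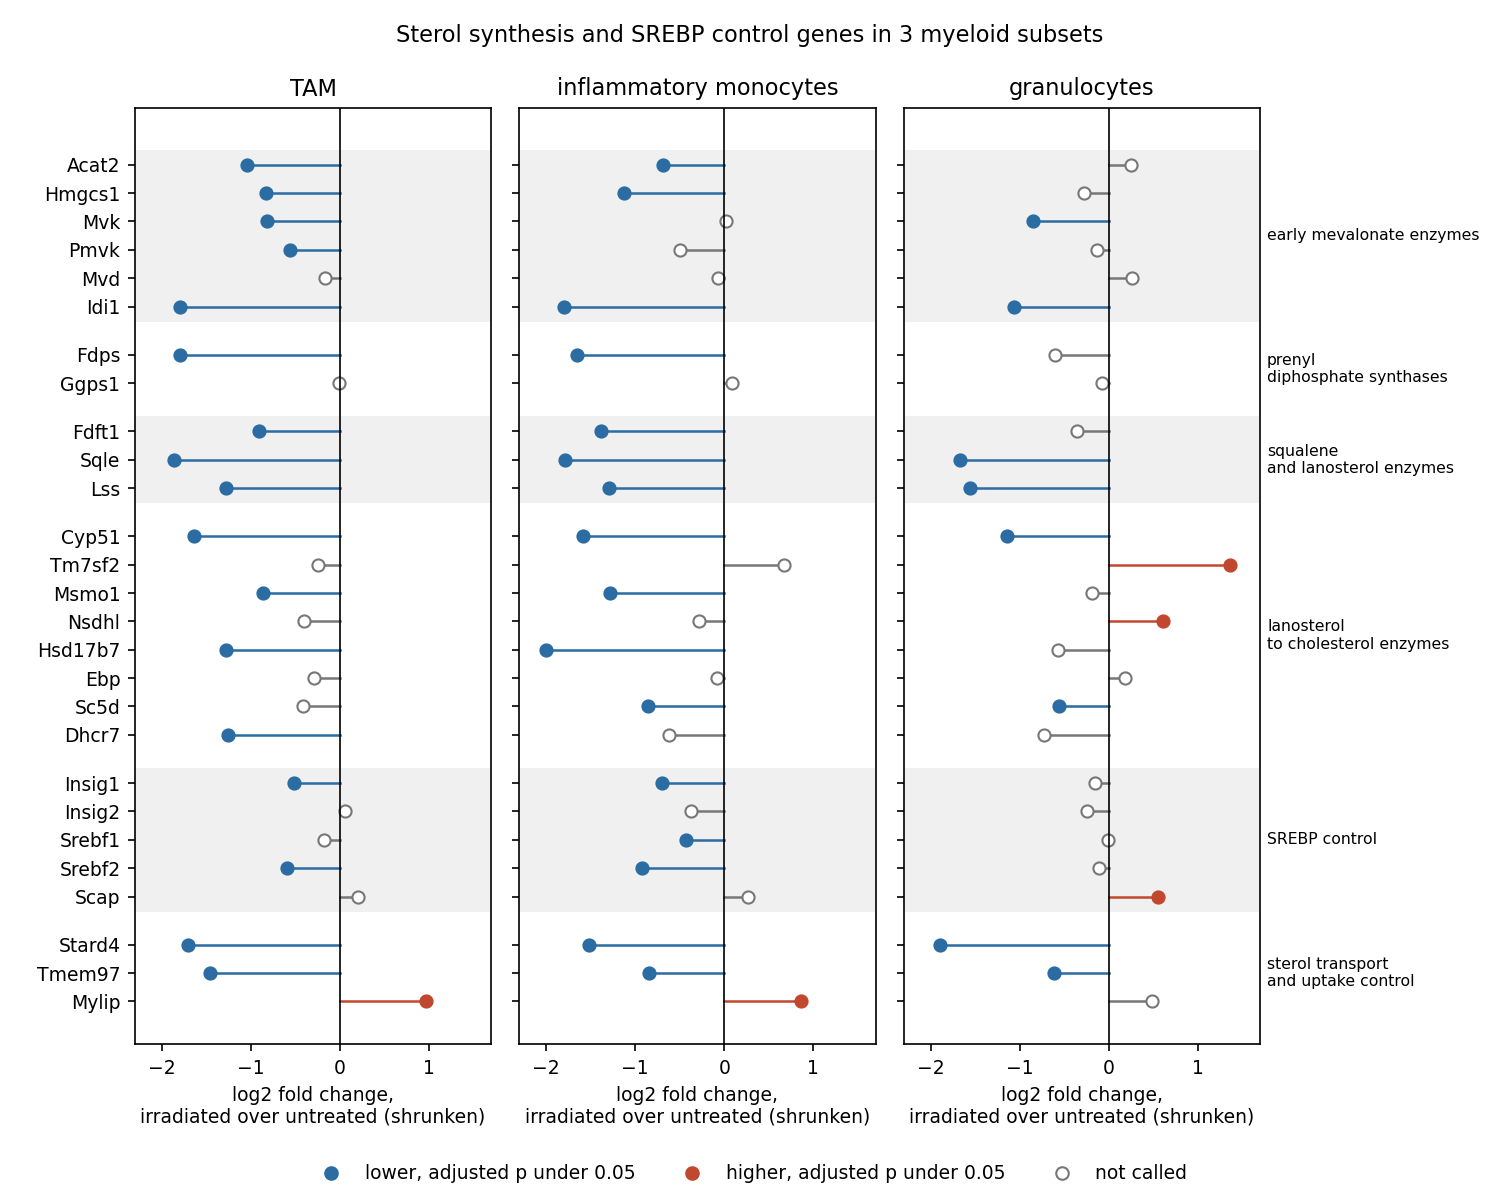
Log2 fold change of each of the 27 members in irradiated against untreated tumours, by subset and pathway role; filled symbols mark genes called at an adjusted p under 0.05. Idi1, Sqle, Lss, Cyp51, Stard4 and Tmem97 lie below 0 and are called in all 3 subsets, while Mylip lies above 0 in each and Tm7sf2 reaches 1.36 in granulocytes.

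The place of the members among all genes differed between the tables. In inflammatory monocytes the median Wald statistic of the members was -3.79, a value that only 71 of the 14506 tested genes, 0.489%, reached or passed on the lower side in the authors' deposited table. In TAM the median was -3.45, which 6.97% of tested genes in the authors' deposited table reached or passed. In granulocytes it was -1.21, which 27.6% of tested genes in the authors' deposited table reached or passed. Of the 100 genes with the smallest p, 9 were members in inflammatory monocytes, 1 in TAM and 1 in granulocytes. Cyp51 and Msmo1 ranked 9 and 8 by p in inflammatory monocytes, Cyp51 ranked 59 in TAM, and Stard4 ranked 14 in granulocytes in the authors' deposited tables. These ranks are descriptions, since the members were chosen with earlier results known.

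**Figure D2:**
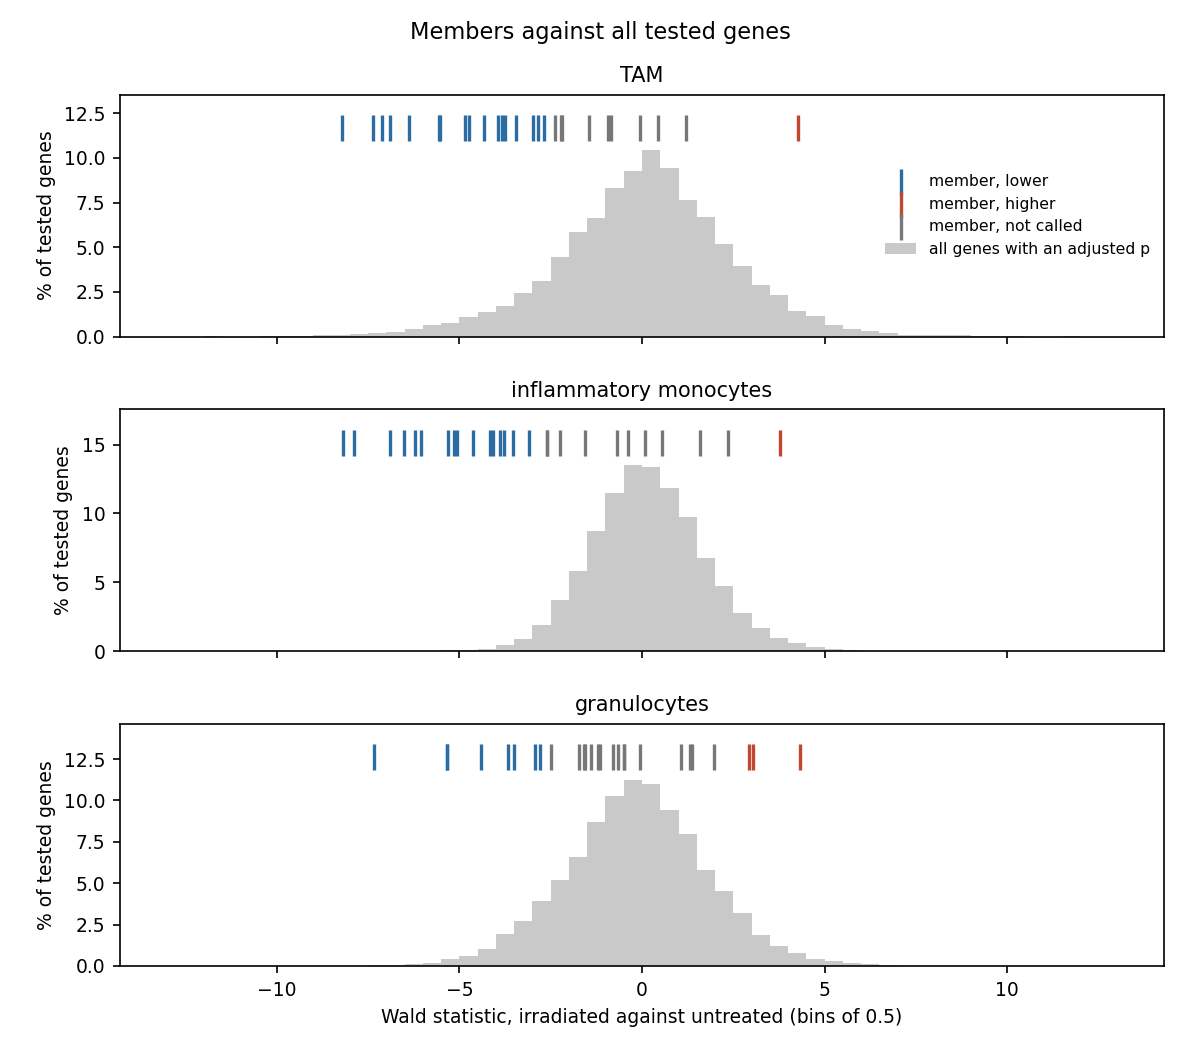
Wald statistics of irradiated against untreated tumours over all tested genes (histogram, bins of 0.5) in TAM, inflammatory monocytes and granulocytes, with the 27 members marked one by one. The members' medians lie at -3.45, -3.79 and -1.21, and the histogram is narrowest for inflammatory monocytes.

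The early enzymes, which turn acetyl-CoA into the first isoprenoid units, fell for 5 of 6 members in TAM, 3 of 6 in inflammatory monocytes and 2 of 6 in granulocytes, and none rose. Idi1, the isomerase that makes dimethylallyl diphosphate, had log2 fold changes in the authors' deposited tables of -1.79 in TAM (adjusted p = 4.7e-10), -1.80 in inflammatory monocytes (adjusted p = 4.7e-09) and -1.07 in granulocytes (adjusted p = 0.0038). On the shrunken scale of the authors' deposited tables, irradiated Idi1 levels were 28.9% of untreated for TAM, 28.8% for inflammatory monocytes and 47.7% for granulocytes. Hmgcs1, the cytosolic HMG-CoA synthase, changed by a log2 fold of -0.82 in TAM (adjusted p = 0.0011) and -1.12 in inflammatory monocytes (adjusted p = 5.3e-05) in the authors' deposited tables. In granulocytes Hmgcs1 was not called, at -0.28 (adjusted p = 0.45) in the authors' deposited table. Acat2, the cytosolic thiolase that joins acetyl-CoA units, fell in TAM (-1.04, adjusted p = 2.4e-05) and in inflammatory monocytes (-0.69, adjusted p = 0.039) by the authors' deposited tables, and stood at 0.25 in granulocytes (adjusted p = 0.52). Its close paralog Acat3 averaged only 0.654 normalised counts in the authors' deposited tables.

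The kinases between mevalonate and Idi1 did not share 1 pattern. Mvk, mevalonate kinase, fell in TAM (-0.82, adjusted p = 0.0015) and in granulocytes (-0.86, adjusted p = 0.0061) but stood at 0.02 in inflammatory monocytes (adjusted p = 0.98), all in the authors' deposited tables. Pmvk, phosphomevalonate kinase, was called lower only in TAM, at -0.55 (adjusted p = 0.015), against -0.49 in inflammatory monocytes (adjusted p = 0.099) and -0.13 in granulocytes (adjusted p = 0.72) in the authors' deposited tables. Mvd, the decarboxylase that follows, was at -0.16, -0.07 and 0.26 in TAM, inflammatory monocytes and granulocytes in the authors' deposited tables, and none of these was called (adjusted p of 0.58, 0.88 and 0.40).

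The windows before the start of 3 early enzymes, from RefSeq on GRCm38.p6, show how their promoters differ in the letters that SREBP and its partner NF-Y are known to read. Capitals mark the sterol regulatory element TCACNCCAC, present in Hmgcs1, and the NF-Y box CCAAT, which reads ATTGG on the other strand. All windows run 5′ to 3′ on the gene's own strand. The Hmgcs1 window is chr13:119690161-119690320 on the plus strand, bases -190 to -31 from the start. The Idi1 window is chr13:8885506-8885605 on the plus strand, bases -100 to -1. The Mvk window is chr5:114444079-114444268 on the plus strand, bases -190 to -1.
Hmgcs1: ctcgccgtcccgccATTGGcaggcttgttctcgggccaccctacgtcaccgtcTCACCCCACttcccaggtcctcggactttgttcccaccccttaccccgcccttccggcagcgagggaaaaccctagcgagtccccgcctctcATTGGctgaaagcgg
Idi1: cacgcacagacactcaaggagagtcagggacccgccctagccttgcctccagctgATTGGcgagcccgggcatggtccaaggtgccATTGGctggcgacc
Mvk: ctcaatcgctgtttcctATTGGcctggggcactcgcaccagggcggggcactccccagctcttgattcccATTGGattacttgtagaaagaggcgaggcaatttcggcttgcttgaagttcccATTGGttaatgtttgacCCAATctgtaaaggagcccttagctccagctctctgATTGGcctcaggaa
The Hmgcs1 element lies at bases -137 to -129, between NF-Y boxes whose first bases are -176 and -45. Idi1 has NF-Y boxes at -45 and -14 and no match to the element. Mvk has 5 NF-Y boxes, of which the 4 on the other strand begin at -173, -120, -67 and -14, each 53 bases from the next. As given above, Idi1 fell in all 3 subsets, and Mvk fell in TAM and granulocytes but was not called in inflammatory monocytes. The part of these motifs in those values was not tested.

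Of the prenyl diphosphate synthases, 1 fell in TAM and in inflammatory monocytes and none was called in granulocytes. Fdps, farnesyl diphosphate synthase, fell in TAM (-1.80, adjusted p = 9e-07) and inflammatory monocytes (-1.65, adjusted p = 7.7e-05) by the authors' deposited tables, and was at -0.60 in granulocytes (adjusted p = 0.24). Ggps1, which makes the geranylgeranyl unit used in protein prenylation, lay between -0.08 and 0.09 in the authors' deposited tables, with adjusted p of 0.98 for TAM, 0.82 for inflammatory monocytes and 0.80 for granulocytes. Its exons overlap those of Arid4b on the other strand, which was higher in TAM (0.57, adjusted p = 0.0024) and not called in the other subsets in the authors' deposited tables.

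All 3 enzymes from farnesyl diphosphate to lanosterol fell in TAM and in inflammatory monocytes, and 2 of the 3 fell in granulocytes. Sqle, squalene epoxidase, a rate-controlling step of sterol synthesis, had log2 fold changes of -1.87 in TAM (adjusted p = 1.2e-08), -1.79 in inflammatory monocytes (adjusted p = 7.7e-07) and -1.68 in granulocytes (adjusted p = 9.2e-06) in the authors' deposited tables. Irradiated Sqle levels were thus 27.4%, 28.9% and 31.3% of untreated in TAM, inflammatory monocytes and granulocytes on the shrunken scale of the authors' deposited tables. Lss, lanosterol synthase, closes the sterol rings, and its log2 fold changes in the authors' deposited tables were -1.28 in TAM (adjusted p = 0.00078), -1.30 in inflammatory monocytes (adjusted p = 0.0054) and -1.56 in granulocytes (adjusted p = 0.00037). Fdft1, squalene synthase, which commits farnesyl diphosphate to sterols, fell in TAM (-0.91, adjusted p = 0.0002) and inflammatory monocytes (-1.39, adjusted p = 5e-08) by the authors' deposited tables, and was at -0.35 in granulocytes (adjusted p = 0.29). Its exons overlap those of the far more abundant protease gene Ctsb on the other strand, and Ctsb was higher in TAM (0.38, adjusted p = 0.011) and inflammatory monocytes (0.48, adjusted p = 0.0051) in the authors' deposited tables. Reads shared with Ctsb cannot be told apart without strand, and their part in the value of Fdft1 was not tested.

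Of the 8 enzymes from lanosterol to cholesterol, 4 fell and none rose in TAM, 4 fell and none rose in inflammatory monocytes, and 2 fell while 2 rose in granulocytes. Cyp51, the lanosterol demethylase, fell in every subset, with log2 fold changes of -1.64 in TAM (adjusted p = 5e-14), -1.58 in inflammatory monocytes (adjusted p = 5.3e-12) and -1.15 in granulocytes (adjusted p = 8.7e-06) in the authors' deposited tables. This was the smallest p of any member in TAM. Its exons overlap those of Akap9 on the other strand, which was called in no subset. Msmo1, the methylsterol oxidase, fell in TAM (-0.86, adjusted p = 1e-06) and, with the smallest p of any member there, in inflammatory monocytes (-1.29, adjusted p = 5.2e-13), against -0.19 in granulocytes (adjusted p = 0.47), in the authors' deposited tables. Hsd17b7, a ketosterol reductase, had the lowest fold of any member in inflammatory monocytes, -2.00 (adjusted p = 3e-05), and was at -1.27 in TAM (adjusted p = 0.0039) and -0.57 in granulocytes (adjusted p = 0.36) in the authors' deposited tables.

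The last steps split further. Sc5d, the sterol desaturase, fell in inflammatory monocytes (-0.85, adjusted p = 0.00046) and granulocytes (-0.56, adjusted p = 0.027), and was at -0.41 in TAM (adjusted p = 0.089), in the authors' deposited tables. Dhcr7, which reduces dehydrocholesterol to cholesterol, fell in TAM (-1.26, adjusted p = 3.9e-05), and was at -0.62 in inflammatory monocytes (adjusted p = 0.17) and -0.73 in granulocytes (adjusted p = 0.066), in the authors' deposited tables. Ebp, the sterol isomerase, stayed uncalled at -0.29 in TAM (adjusted p = 0.063), -0.08 in inflammatory monocytes (adjusted p = 0.77) and 0.18 in granulocytes (adjusted p = 0.37) in the authors' deposited tables.

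Tm7sf2 and Nsdhl went the other way in granulocytes. Tm7sf2, a sterol reductase of the endoplasmic reticulum that acts after Cyp51, was 2.58-fold higher in irradiated granulocytes (log2 fold 1.36, adjusted p = 0.00045) by the authors' deposited table. It was at 0.68 in inflammatory monocytes (adjusted p = 0.15) and -0.24 in TAM (adjusted p = 0.54) in the authors' deposited tables. Its exons overlap those of Vps51 on the same strand, which stood at 0.26 in granulocytes (adjusted p = 0.089) in the authors' deposited table. Nsdhl, which removes a carbon from the sterol ring, rose in granulocytes (0.60, adjusted p = 0.026) and was at -0.41 in TAM (adjusted p = 0.086) and -0.29 in inflammatory monocytes (adjusted p = 0.41) in the authors' deposited tables.

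Windows before the starts of Cyp51, Msmo1 and Tm7sf2, also from RefSeq on GRCm38.p6, are shown because Cyp51 and Msmo1 had the smallest p-values of the members in inflammatory monocytes and Tm7sf2 had the highest fold of the members in granulocytes. Capitals again mark NF-Y boxes on either strand, and none of the windows holds TCACNCCAC exactly. With 1 substitution allowed, which 25.5% of tested genes meet, Msmo1 has unmarked matches at -177 to -169 and -92 to -84. Cyp51 has such a match at -108 to -100, which its window cuts off. The Cyp51 window is chr5:4104698-4104797 on the minus strand, bases -100 to -1. The Msmo1 window is chr8:64733609-64733758 on the minus strand, bases -180 to -31. The Tm7sf2 window is chr19:6067851-6067950 on the minus strand, bases -100 to -1.
Cyp51: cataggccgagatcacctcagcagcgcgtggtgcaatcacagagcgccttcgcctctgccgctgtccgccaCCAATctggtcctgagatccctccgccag
Msmo1: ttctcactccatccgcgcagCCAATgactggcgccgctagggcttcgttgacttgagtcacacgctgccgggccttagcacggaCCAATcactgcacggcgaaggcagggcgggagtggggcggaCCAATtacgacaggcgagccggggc
Tm7sf2: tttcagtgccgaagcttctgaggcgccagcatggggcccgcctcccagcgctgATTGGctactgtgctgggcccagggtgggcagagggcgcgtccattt
Cyp51 has 1 NF-Y box at -29, Msmo1 has 3 that begin at -160, -96 and -55 on its own strand, and Tm7sf2 has 1 at -47 on the other strand. The box was found for 21 of the 23 members whose promoters could be searched. Its part in the direction of change was not tested.

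Among the control genes, the transcription factors fell in part. Srebf2, which encodes the SREBP that drives sterol synthesis, fell in TAM (-0.59, adjusted p = 0.031) and inflammatory monocytes (-0.92, adjusted p = 0.0022), and was at -0.11 in granulocytes (adjusted p = 0.80), in the authors' deposited tables. Srebf1, whose products lean towards fatty acid synthesis, fell in inflammatory monocytes (-0.43, adjusted p = 0.014), and was at -0.17 in TAM (adjusted p = 0.30) and -0.01 in granulocytes (adjusted p = 0.98), in the authors' deposited tables. Its exons overlap those of Rai1 on the other strand, which was called in no subset. Insig1, the retention protein that is itself an SREBP target, fell in TAM (-0.52, adjusted p = 0.021) and inflammatory monocytes (-0.70, adjusted p = 0.0071), and was at -0.15 in granulocytes (adjusted p = 0.65), in the authors' deposited tables. Insig2, its relative, ranged from -0.38 to 0.06 in the authors' deposited tables and was called nowhere. Scap, the escort, rose in granulocytes (0.56, adjusted p = 0.020), and was at 0.21 in TAM (adjusted p = 0.40) and 0.27 in inflammatory monocytes (adjusted p = 0.39), in the authors' deposited tables.

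Both sterol transport genes fell in every subset, and the uptake regulator Mylip rose in TAM and inflammatory monocytes. Stard4, a cytosolic sterol carrier, had log2 fold changes of -1.71 in TAM (adjusted p = 1.3e-10), -1.52 in inflammatory monocytes (adjusted p = 2.9e-07) and -1.89 in granulocytes (adjusted p = 2.2e-10) in the authors' deposited tables. Its log2 fold was the lowest of any member in granulocytes, and its irradiated level was 30.6% of untreated in TAM and 34.9% in inflammatory monocytes on the shrunken scale of the authors' deposited tables. Tmem97, a sterol-responsive protein of the endoplasmic reticulum, fell in TAM (-1.46, adjusted p = 2.7e-11), inflammatory monocytes (-0.84, adjusted p = 0.0028) and granulocytes (-0.62, adjusted p = 0.035) by the authors' deposited tables. Mylip, the ubiquitin ligase induced by LXR that degrades lipoprotein receptors, was 1.95-fold higher in TAM (log2 fold 0.96, adjusted p = 0.00023) and 1.82-fold higher in inflammatory monocytes (log2 fold 0.86, adjusted p = 0.0073) by the authors' deposited tables. In granulocytes Mylip was at 0.48 (adjusted p = 0.16) in the authors' deposited table.

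Differences between subsets could be tested only for opposite directions, because the deposited folds carry no error. A gene passed where its Wald statistics had opposite signs in a pair of subsets and the larger of its p-values was under 0.05 after adjustment by Benjamini and Hochberg's method over the genes that both tables tested. No member passed in any pair, and the background was 0% of genes for TAM with inflammatory monocytes, 0.0957% for TAM with granulocytes and 0% for inflammatory monocytes with granulocytes. Opposite signs were seen for 4 members between TAM and inflammatory monocytes, and for 6 members in each pair with granulocytes. Before adjustment, 0 members of the first pair and of inflammatory monocytes with granulocytes had a larger p under 0.05, and 1 did between TAM and granulocytes. That 1 was Nsdhl (larger p = 0.027, adjusted p = 1).

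Neighbouring lipid pathways, listed with earlier results of these data known, were counted in the same way. Of 14 tested fatty acid synthesis and desaturation genes, which are more closely tied to Srebf1, 7 fell and 1 rose in TAM, 1 fell in inflammatory monocytes, and 5 fell in granulocytes. Their shares in TAM were 50% lower and 7.14% higher, against 12.5% and 13.9% of all tested genes. The share lower was 7.14% in inflammatory monocytes, against 1.77%, and 35.7% in granulocytes, against 9.9%. Fasn, the fatty acid synthase, was at -2.18 in TAM (adjusted p = 8.4e-08) and -1.98 in granulocytes (adjusted p = 2.2e-05) in the authors' deposited tables. Fasn was also the 1 gene of that list called in inflammatory monocytes, at -1.10 (adjusted p = 0.05 after rounding) in the authors' deposited table. All 14 had a Wald statistic below 0 in inflammatory monocytes, and 6 had an unadjusted p under 0.05. Fads1, a desaturase, was at -1.64 in TAM (adjusted p = 1.2e-10) and -1.48 in granulocytes (adjusted p = 8e-07) in the authors' deposited tables.

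Genes of the machinery that processes SREBP were counted too. Of 11 genes for the processing, retention or degradation of SREBP and its partners, 2 rose in TAM and none fell. The 2 were 18.2% of the list, against 13.9% of all tested genes. None was called in inflammatory monocytes or granulocytes, where 1.77% and 9.9% of all tested genes were lower and 4.13% and 7.32% higher. Aup1, a protein of the endoplasmic reticulum and lipid droplets, was among the 2 (0.28, adjusted p = 0.022) in the authors' deposited table for TAM. Before adjustment, 1 of the 11 had a p under 0.05 in inflammatory monocytes and 1 in granulocytes. Of 11 genes that use isoprenoids for prenylation, dolichol or ubiquinone, 4 fell in TAM, none was called in inflammatory monocytes, and 1 fell and 2 rose in granulocytes. The 4 were 36.4% of the list, against 12.5% of all tested genes lower in TAM. Shares in granulocytes were 9.09% lower, near the 9.9% of all tested genes, and 18.2% higher, against 7.32%. Before adjustment, 1 of those 11 had a p under 0.05 in inflammatory monocytes. Fnta, a farnesyltransferase subunit, was at -0.51 (adjusted p = 1.7e-05), and Pdss1, which makes the ubiquinone tail, at -0.96 (adjusted p = 3.6e-05) in TAM in the authors' deposited table.

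Genes of sterol export moved the opposite way to synthesis in TAM. Of 12 oxysterol, LXR and efflux genes, 7 rose and none fell in TAM, 3 rose and none fell in inflammatory monocytes, and 2 rose and 2 fell in granulocytes. The share higher was 58.3% in TAM, against 13.9% of all tested genes, and 25% in inflammatory monocytes, against 4.13%. Granulocytes had 16.7% higher and 16.7% lower, against 7.32% and 9.9% of all tested genes. Apoe, the lipoprotein that carries exported cholesterol, rose by log2 folds of 1.08 in TAM (adjusted p = 0.0019), 1.27 in inflammatory monocytes (adjusted p = 0.001) and 1.39 in granulocytes (adjusted p = 0.00018) in the authors' deposited tables. Apoe is also on the list of macrophage markers counted below, so its rise enters both counts. Nr1h3, which encodes an LXR, rose by 0.95, 0.98 and 0.95 in TAM, inflammatory monocytes and granulocytes in the authors' deposited tables (adjusted p of 0.0056, 0.017 and 0.014). Abca1, the cholesterol exporter, rose in TAM (1.29, adjusted p = 3.1e-08) and inflammatory monocytes (0.66, adjusted p = 0.038) by the authors' deposited tables. In granulocytes Abca1 was not called, at 0.48 (adjusted p = 0.12) in the authors' deposited table. The 2 genes that fell there were Soat1 (-0.52, adjusted p = 0.0039) and Nceh1 (-0.61, adjusted p = 0.03) in the authors' deposited table. Of 12 genes for lipoprotein uptake and endosomal sterol export, 3 rose and 1 fell in TAM, 2 rose and 1 fell in inflammatory monocytes, and 5 rose in granulocytes. Their shares in TAM were 25% higher and 8.33% lower, against 13.9% and 12.5% of all tested genes. Inflammatory monocytes had 16.7% higher and 8.33% lower, against 4.13% and 1.77%. Granulocytes had 41.7% higher, against 7.32%. Npc2, which hands cholesterol out of the lysosome, rose in all 3 subsets, at 0.84 in TAM (adjusted p = 8.7e-07), 0.49 in inflammatory monocytes (adjusted p = 0.032) and 1.06 in granulocytes (adjusted p = 1.4e-08) in the authors' deposited tables.

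**Figure D3:**
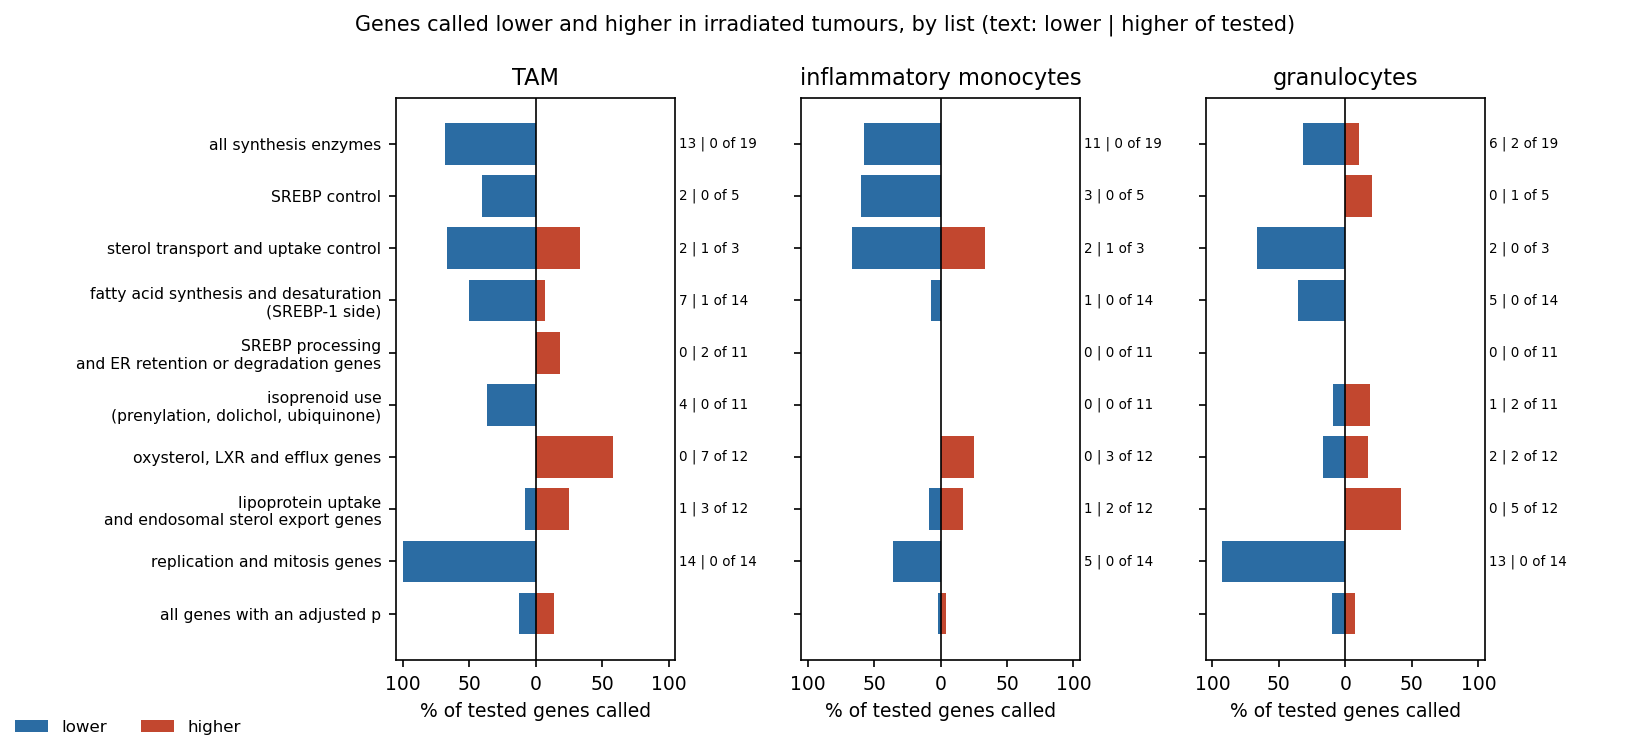
Share of tested genes called lower (left of 0) and higher (right of 0) in irradiated tumours, for the members by role, for other lipid gene lists, for replication and mitosis genes, and for all tested genes, by subset. In TAM 13 of 19 synthesis enzymes were lower while 7 of 12 oxysterol, LXR and efflux genes were higher, and replication and mitosis genes were lower for 14 of 14 in TAM, 5 of 14 in inflammatory monocytes and 13 of 14 in granulocytes.

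Replication and mitosis genes were lower alongside the sterol genes. All 14 fell in TAM (median log2 fold -2.44), 5 of 14 in inflammatory monocytes (median -0.98) and 13 of 14 in granulocytes (median -1.84), by the authors' deposited tables. Over all tested genes, 12.5% were lower in TAM and 9.9% in granulocytes. In inflammatory monocytes all 14 had a Wald statistic below 0 and an unadjusted p under 0.05, and the 5 called lower were 35.7% of the list, against 1.77% of all tested genes. The part of this list in the change of the sterol genes was not tested.

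Some markers of other cell types also moved with irradiation. Over all tested genes, 12.5% were lower and 13.9% higher in TAM, 1.77% and 4.13% in inflammatory monocytes, and 9.9% and 7.32% in granulocytes. In irradiated TAM, 9 of 11 neutrophil markers, 4 of 7 classical monocyte markers and 4 of 4 tested eosinophil markers were higher, and 4 of 7 dendritic cell markers were lower. For the neutrophil list in TAM the median deposited log2 fold was -0.05 while all 11 Wald statistics were above 0, since the folds and statistics of some of these genes differ in sign in the authors' deposited table. Ngp, a neutrophil granule gene, is 1 such gene, at a log2 fold of -0.59 beside a Wald statistic of 9.20 in the authors' deposited table. Fold and Wald signs agreed for all 27 sterol genes in all 3 subsets. In irradiated inflammatory monocytes, 9 of 10 macrophage markers, 6 of 11 neutrophil markers and 2 of 4 eosinophil markers were higher, while 0 of 7 classical monocyte markers were called (1 at an unadjusted p under 0.05). In irradiated granulocytes, 5 of 10 macrophage markers, 3 of 7 classical monocyte markers, 1 of 11 neutrophil markers and 1 of 4 eosinophil markers were higher. Macrophage markers rose in 2 of 10 genes in TAM (20%). Of 8 lymphocyte markers, 1 fell in TAM (12.5%) and 1 rose in inflammatory monocytes (12.5%). The macrophage and lymphocyte shares in TAM, and the 9.09% of neutrophil markers higher in granulocytes, lie near those of all tested genes. Of 5 epithelial and tumour cell markers 1 rose in TAM (20%). Of 6 fibroblast and endothelial markers 1 rose (16.7%) and 1 fell (16.7%) in TAM, and 1 fell in granulocytes (16.7%). The TAM shares of these 2 lists also lie near those of all tested genes. Levels of these markers in each group, and so whether the labelled cell types carry their own markers, were not analysed here. The part of such cells in the values of the sterol genes was not tested.

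Across the promoters, the NF-Y box and the Sp1 box were each found for most members. Promoters from 250 bases before to 50 after the start were in the RefSeq table for 23 of the 27 members, and Fdft1, Fdps, Sqle and Stard4 were not matched. CCAAT, on either strand and before the start, was found for 21 of the 23 genes (91.3%), all but Acat2 and Scap, against 33.8% of all 32851 promoters and 40.1% of 11375 tested genes. GGGCGG, the box of Sp1, was found for 21 of 23 genes (91.3%), against 32.7% of promoters and 59.8% of tested genes. TCACNCCAC was found for 1 of 23 genes (4.35%), Hmgcs1, against 1.05% of promoters and 1.24% of tested genes. With TCANNCCAC, 2 genes matched, Hmgcs1 and Mylip, against 3.52% of promoters, and with 1 substitution allowed 11 matched (47.8%), against 20.7% of promoters and 25.5% of tested genes. A member with several starts counted once if any start matched, which was so for 5 members. No match says only that these letters are not in this window.

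**Figure D4:**
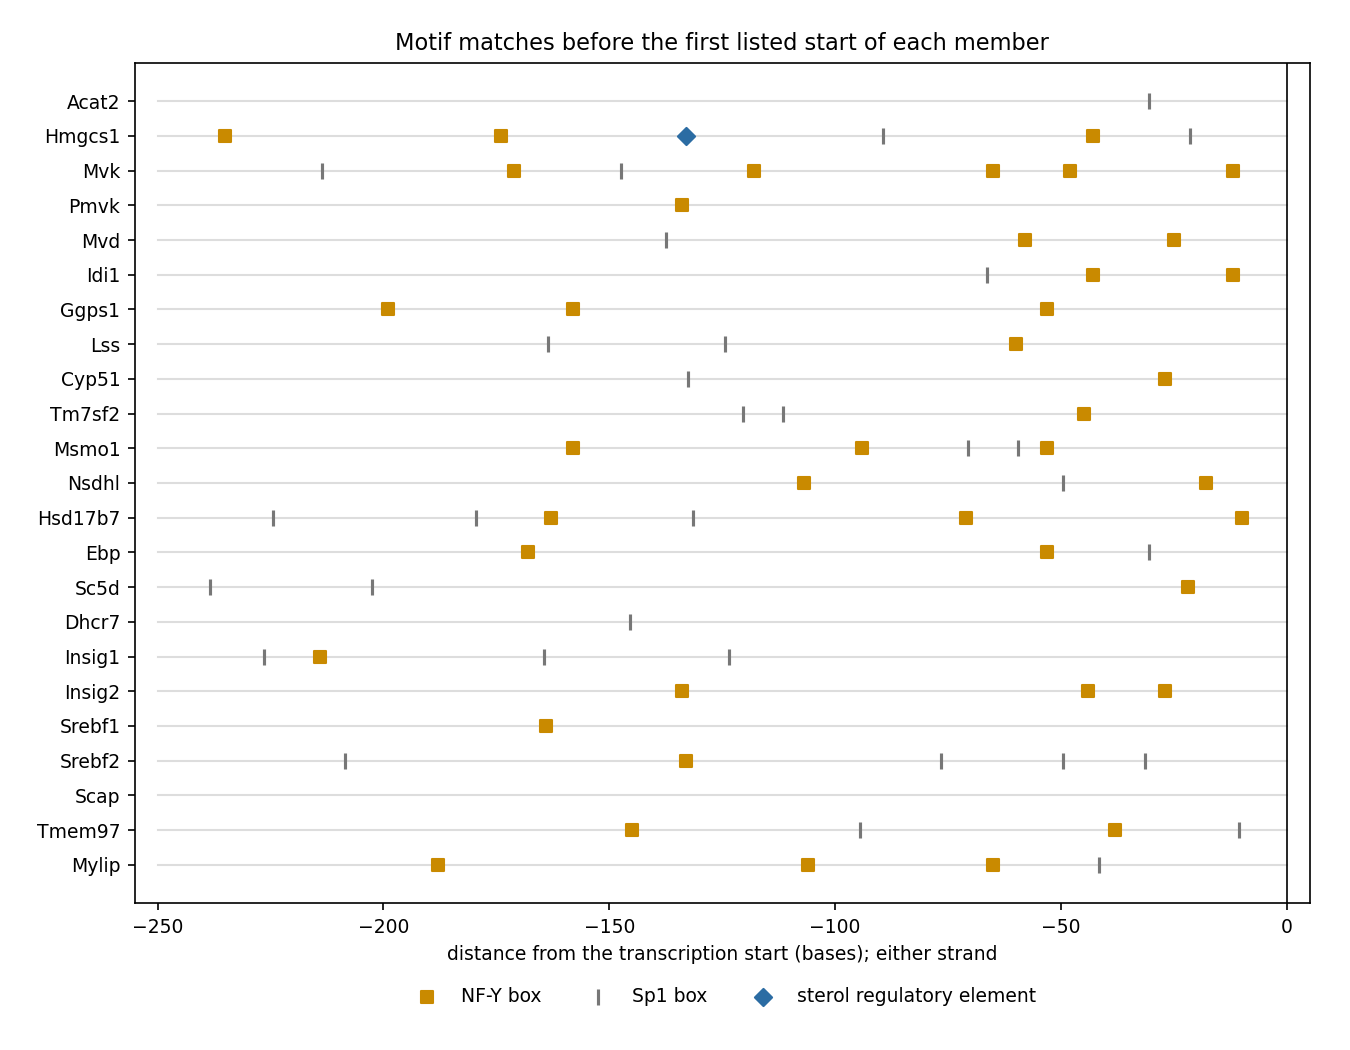
Positions of motif matches on either strand in the 250 bases before the first listed start of each matched member, with distance from the start in bases on the horizontal axis. NF-Y boxes appear for all genes but Acat2, Dhcr7 and Scap, 5 of them for Mvk with 4 spaced evenly at 53 bases, whereas the exact sterol regulatory element appears for Hmgcs1.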

How the data were processed

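RNA of sorted TAM, inflammatory monocytes and granulocytes was sequenced as separate libraries. Per the submitters' processing notes, the tools were STAR 2.7.6a, fastp 0.20.1, R 4.0.2 and DESeq2 1.28.1, and the build was mm39 (GRCm39). How reads were counted, with which strand setting and annotation, is not given in the sources used here. The authors deposited 3 comparison tables. The mean normalised count is a signal deposited by the authors and identical in all 3. Log2 values deposited by the authors are fold changes, taken here to be shrunken, since some are of opposite sign to the Wald statistic, a score deposited by the authors. The p-values and adjusted p-values deposited by the authors follow from that score under a normal distribution (largest log10 gap 0.0021) and its Benjamini-Hochberg adjustment over genes with one. Depth per library is unknown, and nothing in the labels says that tumour numbers are separate mice, so p-values measure the spread between libraries. The identical means, and the 31511 genes with a p-value in each comparison, are what 1 fit over libraries of all subsets would give. The fit itself, and so whether the spread was estimated over all subsets, is not described in the sources used here.

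Members were called at a deposited adjusted p under 0.05, by the sign of the Wald statistic. The members and lists were chosen with earlier results of these data known. Up to 4 called genes with the smallest p could be named per other list, or 2 with the highest mean where none passed; 1 gene that this rule takes is not reported here. Acat3 and tested genes whose exons overlap a member's were named beside it (5 members). Overlaps come from GENCODE M21 and promoters from RefSeq (GRCm38.p6), not the authors' build. Python 3.11.15, pandas 2.3.3, numpy 2.4.6, scipy 1.17.1 and matplotlib 3.10.9 were used, and both kinds of call were tested on simulated data. The simulated statistics were independent between genes and between subsets, unlike these libraries, which share tumour numbers. Where their spread was made wide, the main call gave more false calls than the call after division by the robust SD. That outcome follows from how the simulation was set, so it does not show which call is sounder for these data. Alternatives were other thresholds, minimum means, adjustments, scalings of the Wald statistic and motif spellings.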

Additional observations from a re-analysis of the deposited data

How the results depend on the processing

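No paired analysis was possible because only comparison tables were used, and no tumour number occurs in both groups. Leaving out each replicate in turn was not run for the same reason. No called member changed direction under any alternative, but most alternatives could not have turned a sign. Thresholds, minimum means, adjustments and division by a robust SD leave signs as they are. Fold and Wald signs of all members already agreed, which left only centring. Centring the Wald statistics on their median turned the sign of 2 uncalled values, Mvk in inflammatory monocytes (-0.01) and Srebf1 in granulocytes (0.03). The depth of the libraries is unknown, so no limit of detection is given for members that were not called.

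Where a log2 fold of 1 or more in size was also required, 10 members were lower and 0 higher in TAM, 10 lower and 0 higher in inflammatory monocytes, and 5 lower and 1 higher in granulocytes. At an adjusted p under 0.01, 1 member was higher in granulocytes. Dividing Wald statistics by their robust SD left 1 member lower in TAM (Cyp51), 6 in inflammatory monocytes (Idi1, Fdft1, Sqle, Cyp51, Msmo1, Stard4) and 0 in granulocytes, with 0 higher in each; over all genes this setting called 47, 6 and 5 lower and 44, 27 and 8 higher in the same order of subsets. With the robust SD taken over genes whose mean reached 50, chosen after seeing the data, 0, 5 and 0 members were lower and 0 higher, of 0, 5 and 0 genes lower and 0, 20 and 0 higher in all. Those SDs were 2.72 for TAM, 1.56 for inflammatory monocytes and 2.09 for granulocytes. Promoters with a sterol regulatory element numbered 2 with TCANNCCAC and, in a search added after seeing the data, 11 with 1 substitution. Adjusting over all genes that had a p-value ended 5 calls, namely Srebf2 in TAM, Acat2 in inflammatory monocytes, and Nsdhl, Sc5d and Tmem97 in granulocytes.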
